A study of Mus musculus with 18 samples.

Results

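The genes described here are 5 markers of the cells that build small brain vessels: Slco1a4 and Abcb1a of the endothelium, and Vtn, Pdgfrb and Abcc9 of pericytes. They were taken by symbol from an array study of mouse cortex and of primary cortical cultures, as the probe sets annotated with exactly 1 of these symbols, and they make up 5 of the 14807 genes measured. Each of the 5 has 1 probe set. They were chosen by values measured on these same arrays: their much lower signal in cultures than in cortex and, for Pdgfrb, its lower signal after stimulation. Their culture-cortex differences, and the values of Pdgfrb in the comparisons among cultures, are therefore given as description without a test.

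Endothelial cells of brain capillaries are joined by tight junctions and control what passes between blood and brain, mostly through transporters in their membranes. Pericytes sit on the outside of the capillary, embedded in the vessel's basement membrane. Endothelial PDGF-B binds the receptor encoded by Pdgfrb and keeps pericytes on the vessel, and pericytes in turn help to maintain the barrier. Slco1a4 (Entrez gene 28250) encodes an organic anion transporter of the barrier, and Abcb1a (18671) encodes P-glycoprotein, which pumps many drugs back into the blood. Vtn (22370) encodes vitronectin, an adhesive glycoprotein of plasma and extracellular matrix that brain pericytes make. Pdgfrb (18596) encodes the beta receptor for platelet-derived growth factor, and Abcc9 (20928) encodes SUR2, the regulatory subunit that joins the pore subunit Kcnj8 in the ATP-sensitive potassium channel of pericytes and smooth muscle.

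The study had 6 groups of 3 arrays each. The cortex arrays came from male C57BL/6J mice: home-cage controls left undisturbed, mice sleep deprived for 6 h and killed at once, and mice that recovered after 6 h of deprivation. One label gives 18 h of recovery and another 24 h. Each cortex array carried RNA pooled from 3 mice, so that each group stood for 9 mice, and the mice's age was not given in the sources used here. The cultures were prepared from cortex of newborn C57BL/6J mice or of embryos at day 16 to 18 and grown in a medium for neurons. Dishes received water as a sham or a cocktail of excitatory neurotransmitters. Sham dishes were harvested after 3 h and cocktail dishes after 3 h (called stimulated here) or 24 h, and the 9 dishes came from 3 different cultures. No sham dish was taken at 24 h. Time in the dish and the course after stimulation therefore cannot be told apart in comparisons with the 24 h cultures. Cortex and culture RNA were extracted with different kits, and 100 ng went on each array. Tissue, age and kit cannot be told apart in any comparison between cortex and culture, and in bulk RNA fewer cells of a type and less RNA per cell cannot be told apart either.

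Array medians lay between 6.88 and 6.97 in cortex and between 6.87 and 7.09 in culture, in log2 units of the deposited signal. The immediate early gene Arc, which marks neuronal activity, was higher by 1.56 ± 0.05 (SE) in sleep-deprived than in control cortex (adjusted p = 2.3e-05, limma) and by 1.41 ± 0.25 in stimulated than in sham cultures (adjusted p = 0.0406, limma). The culture call of Arc was lost with any 1 of the 6 arrays left out (adjusted p from 0.0618 to 0.161, limma), and with the culture number as a block its adjusted p was 0.0090 (limma). Culture number here means the replicate number of a culture array. That equal numbers mark the same culture was inferred from the values of these arrays. Many genes carried exactly the same value on several arrays: 34.8% of genes did so on 3 or more of the 9 cortex arrays and 18.6% on 3 or more of the 9 culture arrays. An SD of 0 in what follows therefore reflects identical deposited values and is no measure of precision. The p-values measure the spread between pools or dishes, and the number of arrays limits their precision. Fits without the block treat the dishes as independent, so in culture their spread also holds differences between cultures.

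The promoters of Slco1a4 and Vtn are shown because these genes had the largest drops in signal between cortex and culture among the 5. They are RefSeq sequences of build GRCm38.p6, from 250 bases before to 50 bases after the annotated start and written 5′ to 3′ along the gene. Capitals mark the motif matches described after them. Slco1a4 lies at chr6:141856171-141856470 on the minus strand and Vtn at chr11:78498870-78499169 on the plus strand.
Slco1a4: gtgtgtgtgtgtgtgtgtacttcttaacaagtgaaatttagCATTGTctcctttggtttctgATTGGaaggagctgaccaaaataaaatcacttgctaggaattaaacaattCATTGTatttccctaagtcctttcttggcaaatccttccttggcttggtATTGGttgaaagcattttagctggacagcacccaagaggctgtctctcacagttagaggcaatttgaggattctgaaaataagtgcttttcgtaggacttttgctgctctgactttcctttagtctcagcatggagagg
Vtn: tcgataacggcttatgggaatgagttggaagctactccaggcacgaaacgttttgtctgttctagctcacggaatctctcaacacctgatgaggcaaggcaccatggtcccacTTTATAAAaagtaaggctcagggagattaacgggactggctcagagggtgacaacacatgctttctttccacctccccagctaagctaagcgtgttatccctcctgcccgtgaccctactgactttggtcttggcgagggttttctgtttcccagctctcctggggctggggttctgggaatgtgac

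The search covered both strands for the core promoter letters TATAAA, the nuclear factor Y letters CCAAT, the Sp1 letters GGGCGG, the E-box letters CACGTG, the cyclic AMP response element TGACGTCA, the ETS factor letters CCGGAA and the SOX factor letters ACAATG. The Slco1a4 promoter held reversed nuclear factor Y letters at -188 and at -89, found in 37.4% of the 32851 promoters, and reversed SOX letters at -209 and at -138, found in 12.6%. The Vtn promoter held the core promoter letters at -135 on the gene's strand, overlapping a match at -137 on the other strand. These letters occurred in 13.6% of promoters. The Abcc9 promoter held reversed Sp1 letters at -79 (35.7% of promoters), and the Abcb1a promoter held none of these letters. E-boxes (7.15%), cyclic AMP response elements (1.79%) and ETS letters (14.9%) were in none of these 4 promoters. A match is a run of letters in this window and does not show that a factor binds. Slco1a4 and Abcc9 both lie on chromosome 6, where Abcc9 is next to its channel partner Kcnj8 and Slco1a4 next to its paralog Slco1a1. Abcb1a lies beside its paralog Abcb1b on chromosome 5.

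Slco1a4 showed the widest range of the 5. In control cortex the arrays read 8.69, 8.70 and 9.10 (mean 8.83 ± 0.23, SD, n = 3), in sleep-deprived cortex 8.41, 8.41 and 8.40 (8.40 ± 0.01), and in recovered cortex 8.84, 8.75 and 9.00 (8.86 ± 0.12). Sham cultures read 2.98 on all 3 arrays, stimulated cultures 2.87, 3.03 and 2.98 (2.96 ± 0.08), and cultures 24 h after stimulation 2.98, 2.98 and 3.02 (2.99 ± 0.02). All cortex arrays stood far above all culture arrays, and the 3 culture groups overlapped. The same value recurred on 6 of the 9 culture arrays. In order of level the recovered and control cortex did not differ beyond their spread, sleep-deprived cortex lay below both, and the culture groups at the bottom were not separated.

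Abcb1a was level across the cortex groups. Control pools read 8.19, 8.08 and 8.06 (8.11 ± 0.07), sleep-deprived pools 8.12 on all 3 arrays, and recovered pools 8.14, 8.12 and 8.17 (8.14 ± 0.02). Sham cultures read 5.21, 5.27 and 5.26 (5.25 ± 0.03), stimulated cultures 5.34, 5.20 and 5.46 (5.33 ± 0.13), and cultures at 24 h 5.27, 5.35 and 5.27 (5.30 ± 0.05). The cortex groups overlapped one another and so did the culture groups, with a wide gap between the systems.

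Vtn read 10.41, 10.39 and 10.39 in control cortex (10.39 ± 0.01), 10.28, 10.26 and 10.24 in sleep-deprived cortex (10.26 ± 0.02), and 10.35, 10.34 and 10.56 in recovered cortex (10.42 ± 0.12). The sleep-deprived pools were the lowest 3 of the 9, and 1 recovered pool was the highest. In cultures it read 5.43, 5.44 and 5.37 after sham (5.41 ± 0.04), 5.38, 5.47 and 5.45 after stimulation (5.44 ± 0.05), and 5.45, 5.60 and 5.56 at 24 h (5.53 ± 0.08). The 24 h arrays lay above the sham arrays, and stimulated cultures overlapped with both.

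Pdgfrb was the member with the smallest gap between cortex and culture and the only member whose stimulated cultures stood apart from both other culture groups. Control pools read 8.32, 8.39 and 8.31 (8.34 ± 0.04), sleep-deprived pools 8.15, 8.27 and 8.18 (8.20 ± 0.06), and recovered pools 8.34, 8.33 and 8.49 (8.38 ± 0.09). Sham cultures read 7.18, 7.07 and 7.14 (7.13 ± 0.06), stimulated cultures 6.14, 6.34 and 6.25 (6.24 ± 0.10), and cultures at 24 h 6.91, 6.91 and 7.20 (7.01 ± 0.17). Every stimulated array lay below every other culture array, whereas sham and 24 h cultures overlapped.

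Abcc9 read 6.82, 6.91 and 6.73 in control cortex (6.82 ± 0.09), 6.85, 6.89 and 6.82 in sleep-deprived cortex (6.86 ± 0.04), and 6.80, 6.74 and 6.83 in recovered cortex (6.79 ± 0.05). Sham cultures read 4.94, 4.88 and 4.94 (4.92 ± 0.03), stimulated cultures 4.94, 4.95 and 4.94 (4.94 ± 0.01), and cultures at 24 h 4.91, 5.00 and 4.94 (4.95 ± 0.05). The 3 groups overlapped within each system, and 1 value recurred on 5 of the 9 culture arrays. Levels of different genes come from different probes and are not set against each other.

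**Figure D1:**
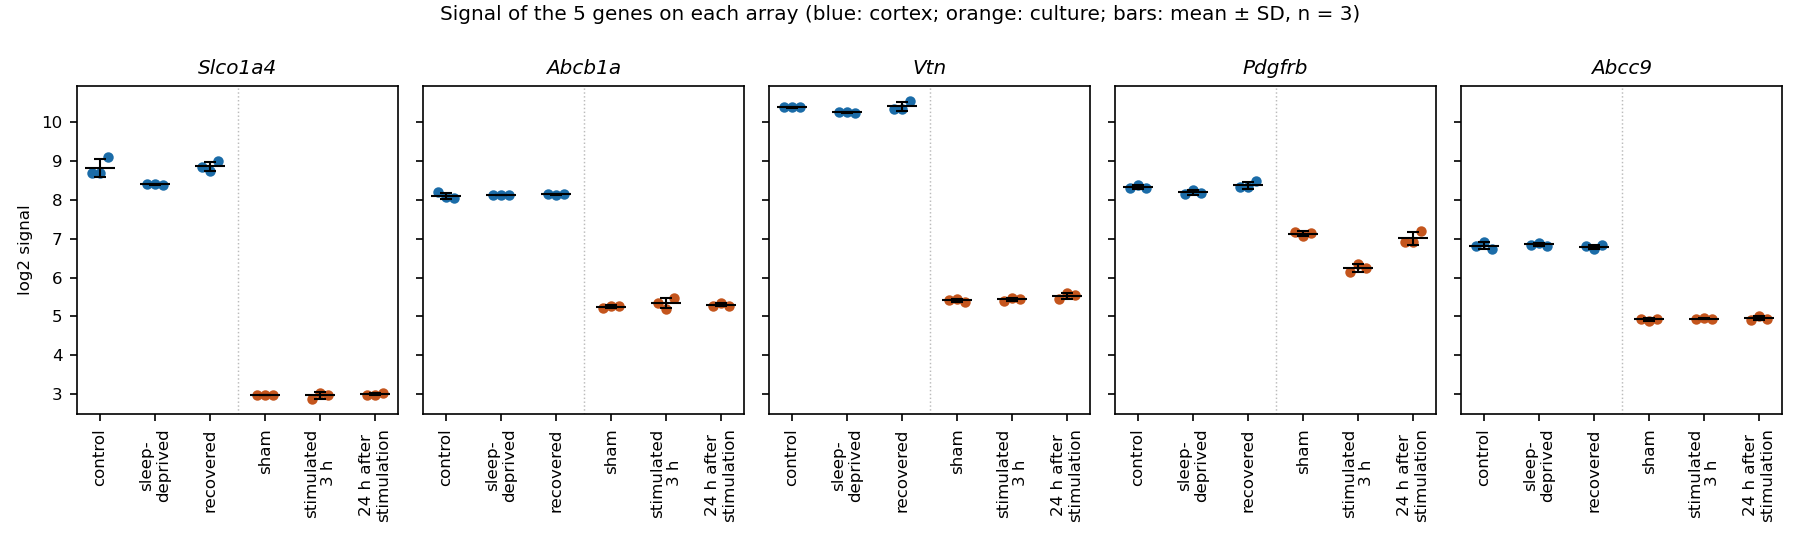
Deposited log2 signal of Slco1a4, Abcb1a, Vtn, Pdgfrb and Abcc9 on each of the 18 arrays, with the group on the x axis, cortex in blue and culture in orange, and bars for the mean ± SD of 3 arrays. All 5 genes are lower in every culture than in every cortex array, sleep-deprived pools of Slco1a4, Vtn and Pdgfrb lie below their controls, and Pdgfrb is lowest in stimulated cultures.

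The comparison of sham cultures with control cortex asked how far the vascular genes of the intact tissue were represented in the dish. Slco1a4 differed by -5.85 ± 0.09 (SE) on the log2 scale, the lowest difference between deposited values of all 14807 genes. Vtn differed by -4.98 ± 0.06 (rank 4 from the lowest), Abcb1a by -2.86 ± 0.06 (rank 68), Abcc9 by -1.90 ± 0.05 (rank 178) and Pdgfrb by -1.21 ± 0.08 (rank 406). The values used here carry no detection calls, so whether the low culture signals, above all that of Slco1a4 near 3, stood above background was not tested, and no fold is given. These differences chose the members and support nothing further. All 5 were lower on every sham array than on every control array, as were 18% of all genes.

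The median of all genes was itself higher in culture by 0.50. After quantile normalization of the 18 arrays that median was 0.03, and the members stood at -6.24 (Slco1a4), -5.43 (Vtn), -3.24 (Abcb1a), -2.06 (Abcc9) and -1.79 (Pdgfrb). Of all genes 76.2% passed the test in this comparison, 61% higher and 15.3% lower in culture. After quantile normalization 5069 were higher and 4431 lower.

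Other endothelial genes were lower too. Of 35 measured, 29 were lower in culture and 3 higher past an adjusted p of 0.05 (limma), with a median difference of -1.38 (32 and 2, median -1.49, after quantile normalization). Flt1, a receptor for vascular endothelial growth factor, was lower by -3.08 ± 0.04 (adjusted p = 2.1e-16, limma), and Cdh5, the cadherin of endothelial junctions, by -3.35 ± 0.05 (adjusted p = 6.6e-16, limma). The surface sialomucin gene Emcn differed by -4.32 ± 0.07, the angiopoietin receptor gene Tek by -3.56 ± 0.08, the phosphatase gene Ptprb by -3.10 ± 0.06 and the growth factor receptor gene Kdr by -2.24 ± 0.06. These 6 had the smallest p of the list and were lower under either scaling.

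Barrier transporters went both ways. Of 16 measured, 7 were higher and 7 lower in culture (4 higher and 9 lower after quantile normalization). Slc7a5 (2.56 ± 0.06) and Slc3a2 (1.64 ± 0.05), which encode the chains of a large amino acid transporter that many cell types carry, were higher, as was the glutamine carrier gene Slc38a3 (1.68 ± 0.07). The organic anion transporter genes Slc22a8 (-3.49 ± 0.08) and Slco2b1 (-1.82 ± 0.07) and the thiamine transporter gene Slc19a3 (-2.13 ± 0.10) were lower. All 6 kept their direction after quantile normalization.

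Of 23 pericyte genes 16 were lower and 3 higher in culture, with a median of -0.997 (17 and 2, median -1.10, after quantile normalization). The P-type ATPase gene Atp13a5 (-3.27 ± 0.04, adjusted p = 1.0e-16, limma) and the amino acid transporter gene Slc6a20a (-3.12 ± 0.08) had the smallest p of the list. The G protein regulator gene Rgs5 (-2.84 ± 0.15), the aminopeptidase gene Anpep (-2.10 ± 0.07), the nucleotide sugar receptor gene P2ry14 (-3.47 ± 0.13) and the transcription factor gene Tbx18 (-1.30 ± 0.07) were lower as well. Cspg4 (mean 7.18 in control cortex and 8.39 in sham cultures) and Notch3 (7.28 and 8.44) went the other way. Both stayed higher after quantile normalization (0.60, adjusted p = 0.0011, and 0.52, adjusted p = 0.0005, limma). Kcnj8, the pore partner of Abcc9, read 7.27, 7.02 and 6.79 in control cortex and 6.29, 6.08 and 6.22 in sham cultures, a difference of -0.83 ± 0.14 (adjusted p = 6.2e-05, limma) with no overlap. The other pore gene, Kcnj11, differed by -0.47 ± 0.11 (adjusted p = 0.0012, limma).

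Of 10 smooth muscle genes 8 were lower and none higher, led by the actin gene Acta2 (-3.44 ± 0.05), and of 14 perivascular fibroblast genes 8 were lower and 1 higher. Of 11 basement membrane genes 4 were lower and 7 higher (5 and 2 after quantile normalization), and the laminin gene Lama4 (-2.38 ± 0.07) had the smallest p. Genes of other cell types differed between the systems too, in both directions. All 9 oligodendrocyte genes (median -3.52) and all 10 microglial genes (median -2.20) were lower in culture, and all 8 dividing-cell genes were higher (median 3.48). Of 11 neuron genes 5 were higher and 2 lower, with a median of 0.18 (1 and 7, median -0.42, after quantile normalization). Of 8 astrocyte genes 4 were higher and 2 lower, with a median of 0.65 (2 and 3, median -0.14). Their part in the result was not tested.

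Of 6 PDGF ligand and receptor genes apart from Pdgfrb, 5 were higher and 1 lower in culture. Pdgfb, which encodes the endothelial and neuronal ligand of the beta receptor, read 8.69, 8.67 and 8.58 in control cortex and 10.06, 10.26 and 10.23 in sham cultures, a difference of 1.53 ± 0.13 (adjusted p = 3.3e-08, limma; 0.63 after quantile normalization). Pdgfa was higher by 1.49 ± 0.09 (0.56 after quantile normalization) and Pdgfra, the alpha receptor of oligodendrocyte precursors, by 2.42 ± 0.30 (1.59). Pdgfd, whose product also binds the beta receptor, was lower by -2.08 ± 0.14 (-2.12). The higher call of Pdgfc (1.03 ± 0.17) was lost after quantile normalization (0.31, adjusted p = 0.122, limma).

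Of the paralogs of the members, Slco1c1, a thyroid hormone transporter of the barrier and of astrocytes, was higher in culture by 1.02 ± 0.25 (adjusted p = 0.0019, limma), a call lost after quantile normalization (0.10, adjusted p = 0.748, limma). Abcb1b, which encodes the other mouse P-glycoprotein and whose probes may share sequence with Abcb1a, differed by -0.37 ± 0.34 (adjusted p = 0.331, limma).

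**Figure D2:**
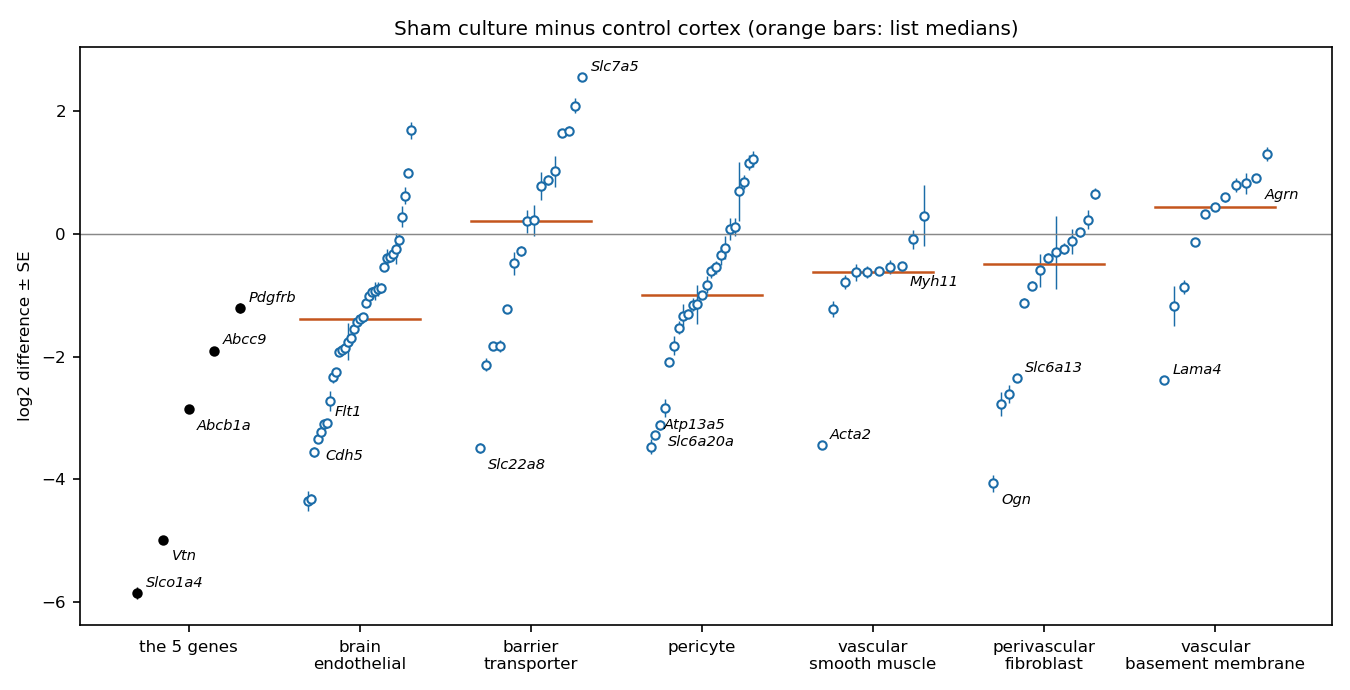
Difference in log2 signal ± SE between sham cultures and control cortex for the 5 genes (black) and for each gene of 6 vascular lists (blue), ordered by size within a list, with orange bars at the list medians. Slco1a4 at -5.85 and Vtn at -4.98 lie below every gene of the 6 lists, and most endothelial and pericyte genes lie below 0 while barrier transporters lie on both sides.

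In sleep-deprived cortex, none of the 5 genes passed the test against controls, where 1.63% of all genes did. Slco1a4 came nearest, at -0.42 ± 0.11 (1.34-fold lower, 95% interval -0.68 to -0.17, adjusted p = 0.134, limma). Its sleep-deprived pools had an SD of 0.01 and its control pools one of 0.23, with control pool 3 above the other 2. Pdgfrb differed by -0.14 ± 0.05 (adjusted p = 0.311, limma) and Vtn by -0.14 ± 0.06 (adjusted p = 0.357, limma). Abcb1a (0.01 ± 0.04, adjusted p = 0.953, limma) and Abcc9 (0.04 ± 0.05, adjusted p = 0.83, limma) were within the spread of their pools.

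All 3 sleep-deprived pools lay below all 3 controls for Slco1a4, Vtn and Pdgfrb, 3 of the 5 genes, and 11.1% of all genes showed the same. With each array weighted by its own spread the adjusted p of Slco1a4 was 0.0348 (limma), and it lay between 0.119 and 0.287 when any 1 of the 6 arrays was left out.

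Of 35 endothelial genes 3 changed with sleep deprivation (8.57%, against 1.63% of all genes), and 32 did not pass. Mfsd2a, the lipid transporter that restrains transcytosis across the barrier, read 8.88, 8.76 and 8.70 in controls and 9.41, 9.37 and 9.48 after deprivation. The pools did not overlap, and it rose by 0.64 ± 0.06 (1.56-fold, adjusted p = 0.0038, limma). The adhesion molecule gene Icam2 rose by 0.28 ± 0.05 (adjusted p = 0.0423, limma) and the sialomucin gene Cd34 fell by -0.26 ± 0.05 (adjusted p = 0.0499, limma). The list median was -0.03, against -0.0027 for all genes. Leaving out any 1 of the 6 arrays left 1 call, Mfsd2a, and the calls of Icam2 and Cd34 were lost each time. The signal of Mfsd2a was higher in sham culture than in control cortex, by 1.68 ± 0.14 (0.77 after quantile normalization).

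Of 16 barrier transporters 4 changed (25%), 1 higher and 3 lower. Slc2a1, the glucose transporter of the barrier, read 10.87, 10.81 and 10.77 in controls and 11.23, 11.20 and 11.29 after deprivation, and it rose by 0.42 ± 0.04 (1.34-fold, adjusted p = 0.0056, limma). Slc22a8, the organic anion transporter gene of the barrier and choroid plexus, read 9.23, 9.23 and 9.21 in controls and 8.83, 8.94 and 8.87 after deprivation. It fell by -0.34 ± 0.03 (adjusted p = 0.0042, limma), with no overlap between the pools. The taurine transporter gene Slc6a6 fell by -0.24 ± 0.03 (adjusted p = 0.0112, limma) and the transferrin receptor gene Tfrc by -0.52 ± 0.09 (adjusted p = 0.0313, limma). Tfrc lost its call without control pool 1, 2 or 3 or sleep-deprived pool 1 (adjusted p from 0.0887 to 0.104, limma), and Slc6a6 without control pool 2 (0.0557). With all 18 arrays in 1 model the adjusted p was 0.0989 for Mfsd2a, 0.196 for Slc22a8, 0.467 for Slc6a6 and 0.817 for Slc2a1 (limma). Deposited means in sham culture and control cortex were 11.02 and 10.81 for Slc2a1, 10.99 and 10.12 for Slc6a6 and 9.47 and 9.25 for Tfrc. Slc22a8 had 5.74 and 9.22. After quantile normalization Slc2a1 (-0.725) and Tfrc (-0.69) were lower in culture. Which cells carried these 4 changes was not tested.

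None of 23 pericyte genes passed. Their median was -0.07, with 19 below 0 and 4 above, and Atp13a5 (-0.15 ± 0.04, adjusted p = 0.112, limma) and Mcam (-0.18 ± 0.06, adjusted p = 0.22, limma) had the smallest p. The mean of the pericyte list per array was 6.94 to 6.99 in controls and 6.87 to 6.91 after deprivation, so that the groups did not overlap, whereas the endothelial list overlapped (7.43 to 7.49 and 7.42 to 7.46). Kcnj8 differed by -0.05 ± 0.11 (adjusted p = 0.908, limma). None of 10 smooth muscle and 14 fibroblast genes passed.

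Of 11 basement membrane genes 1 changed. Lama4, a laminin chain of vessel walls, read 7.43, 7.50 and 7.47 in controls and 7.01, 7.03 and 7.03 after deprivation, and it fell by -0.44 ± 0.05 (1.36-fold lower, adjusted p = 0.0047, limma). Among 22 vascular signalling genes the vasoconstrictor gene Edn1 fell by -0.45 ± 0.09 (adjusted p = 0.0494, limma), a call lost with any array but sleep-deprived pool 2 left out (adjusted p from 0.077 to 0.145, limma). No PDGF ligand passed, Pdgfb being nearest with 0.12 ± 0.04 (adjusted p = 0.219, limma).

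Markers of other cells differed between the same pools. The mean of 9 oligodendrocyte genes was 9.67 to 9.72 in controls and 9.55 to 9.58 after deprivation, and 2 of them fell, the myelin genes Opalin (-0.84 ± 0.06) and Aspa (-0.33 ± 0.04). The microglial means overlapped (7.79 to 7.89 and 7.75 to 7.87), but 1 of the 10 genes fell: Trem2, a receptor of microglia, read 7.76, 7.76 and 7.78 in controls and 7.38, 7.54 and 7.43 after deprivation (-0.32 ± 0.04, adjusted p = 0.0161, limma). Its call held in 2 of the 6 fits with an array left out (adjusted p up to 0.077, limma) and was lost in the model of all 18 arrays (adjusted p = 1, limma), with the compared arrays alone (0.0727) and with the replicate block (0.0613). Opalin, Aspa and Trem2 were listed with earlier results of these data known, so their calls are no independent evidence. The mean of 8 astrocyte genes was 9.39 to 9.43 in controls and 9.45 to 9.50 after deprivation, without overlap, and none of the 8 passed. Choroid plexus genes varied from pool to pool, and Ttr, the main choroid plexus transcript, read 7.83, 10.41 and 7.10 in controls, 10.53, 11.19 and 7.72 after deprivation and 7.19, 6.92 and 9.35 after recovery. Their part in the vascular differences was not tested.

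**Figure D3:**
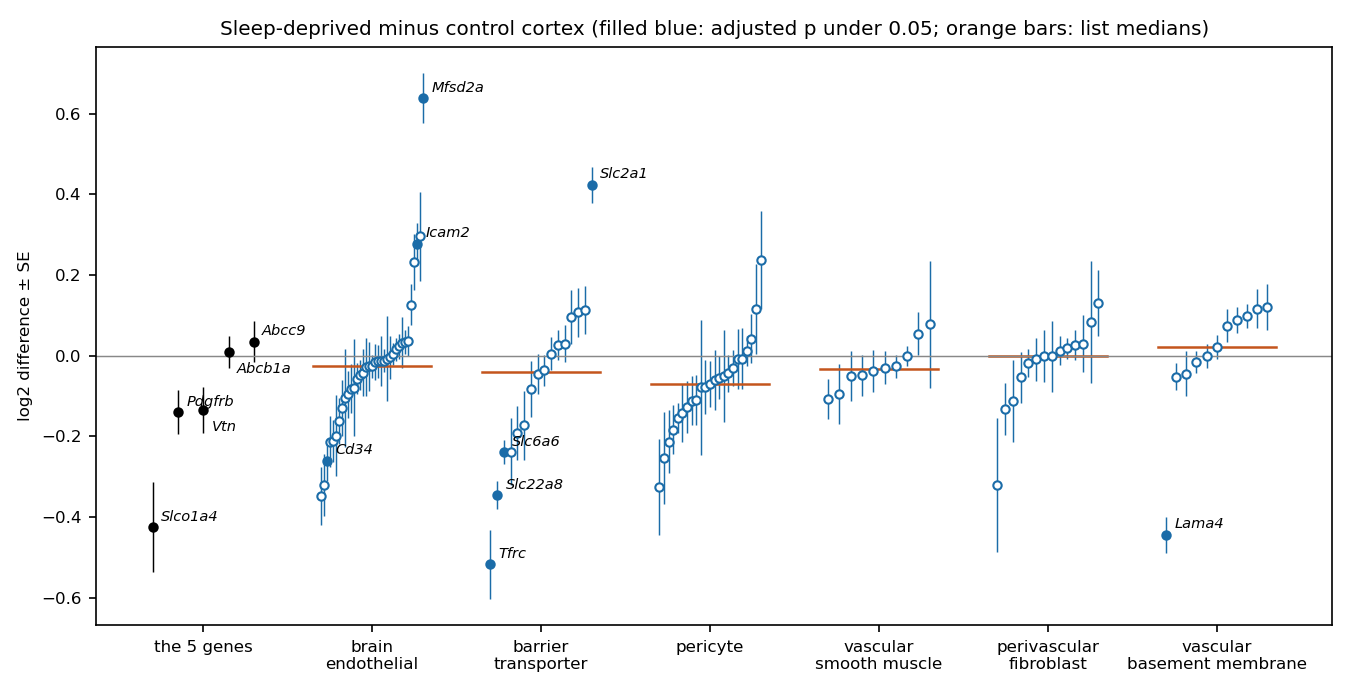
Difference in log2 signal ± SE between sleep-deprived and control cortex for the 5 genes (black) and the genes of 6 vascular lists, with filled blue points for an adjusted p under 0.05 and bars at the list medians. Slco1a4 lies at -0.42 without passing, Mfsd2a (0.64) and Slc2a1 (0.42) lie highest, and no pericyte, smooth muscle or fibroblast point is filled.

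After recovery the 5 genes stood near control, with differences from -0.03 (Abcc9) to 0.05 (Pdgfrb), and none passed. No gene of the 14807 passed this comparison in limma (0%), and 427 had an unadjusted p under 0.05. Against the sleep-deprived pools, Slco1a4 was 0.46 ± 0.11 higher (1.38-fold, adjusted p = 0.0839, limma), Pdgfrb 0.18 ± 0.05 (adjusted p = 0.139, limma) and Vtn 0.16 ± 0.06 (adjusted p = 0.226, limma). None of the 5 passed, where 2.26% of all genes did. For these 3 every recovered pool lay above every sleep-deprived pool, as for 14.4% of all genes. Both comparisons use the same sleep-deprived pools, so the later values are not independent of the earlier ones. With only the 6 compared arrays in the fit the adjusted p of Slco1a4 was 0.0486 (limma). Recovered pool 3, the highest of the recovered pools for Slco1a4, Vtn and Pdgfrb, also had the highest array median of the cortex, 6.97.

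The genes that had changed with deprivation had the opposite sign between recovered and the same sleep-deprived pools. Recovery and time of day cannot be told apart in this comparison. Mfsd2a fell by -0.63 ± 0.06 (adjusted p = 0.0032, limma) and Slc2a1 by -0.40 ± 0.04 (adjusted p = 0.0061, limma). Slc22a8 rose by 0.44 ± 0.03 (adjusted p = 0.0015, limma), Slc6a6 by 0.29 ± 0.03 (0.0049), Lama4 by 0.51 ± 0.05 (0.0026) and Tfrc by 0.43 ± 0.09 (0.0494). Itm2a, a transmembrane protein gene of brain endothelium, rose by 0.41 ± 0.08 (adjusted p = 0.0413, limma). Of the 35 endothelial genes these 2, Mfsd2a and Itm2a, passed (5.71%), and no pericyte gene did. The calls of Tfrc and Itm2a were lost with any 1 array left out. With all 18 arrays in 1 model the adjusted p was 0.0951 for Mfsd2a, 0.219 for Slc6a6, 0.71 for Slc2a1, 0.844 for Tfrc and 0.959 for Itm2a (limma).

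In stimulated cultures Pdgfrb was the only 1 of the 5 genes that separated from sham. Its signal differed by -0.89 ± 0.10 (1.85-fold lower, rank 18 from the lowest of 14807 genes; -0.77 after quantile normalization), and its arrays did not overlap with the sham arrays, as held for 14.4% of genes in that direction. This value chose the gene, so that it is given as description. By comparison, 1.45% of all genes passed here, 0.898% higher and 0.554% lower, and 358 genes rather than 215 did so with the culture number as a block. When each of the 6 arrays was left out in turn its difference ranged from -0.94 to -0.84.

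The other 4 genes did not pass. Their sham means were 2.98 (Slco1a4), 4.92 (Abcc9), 5.25 (Abcb1a) and 5.41 (Vtn). Without detection calls, whether such signals could fall further was not tested. Abcb1a differed by 0.08 ± 0.08 (95% interval -0.09 to 0.26, adjusted p = 0.853, limma), Abcc9 by 0.02 ± 0.06 (adjusted p = 0.999, limma), Slco1a4 by -0.02 ± 0.06 and Vtn by 0.02 ± 0.07 (both adjusted p = 1, limma).

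At 24 h Pdgfrb was higher than in stimulated cultures by 0.77 ± 0.10, with no overlap, as for 10% of all genes, and stood -0.12 ± 0.10 from sham. The other 4 genes did not pass against stimulated cultures (adjusted p from 0.623 for Vtn to 0.965 for Abcc9, limma), where 0.331% of all genes did, or 150 genes rather than 49 with the culture number as a block. Vtn was 0.12 ± 0.07 above sham at 24 h (adjusted p = 0.885, limma), with no overlap, as for 3.38% of all genes. No gene passed between 24 h and sham in limma, and 877 had an unadjusted p under 0.05. With array weights 958 genes passed this comparison, and 64 did in the model of all 18 arrays.

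Neither the PDGF ligands nor the other receptors passed in any comparison among cultures. Pdgfb read 10.06, 10.26 and 10.23 after sham and 10.10, 10.37 and 9.90 after stimulation, and the groups overlapped (-0.06 ± 0.17, adjusted p = 0.999, limma). Pdgfra read 10.67, 10.79 and 9.61 after sham and 10.66, 10.90 and 9.76 after stimulation, with culture 3 lowest in both (0.08 ± 0.39, adjusted p = 1, limma). The spread of Pdgfra left a 95% interval from -0.82 to 0.98 for this difference. With the culture number as a block, which takes out what dishes of the same number share, the same difference was 0.08 ± 0.11 (adjusted p = 0.854, limma).

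**Figure D4:**
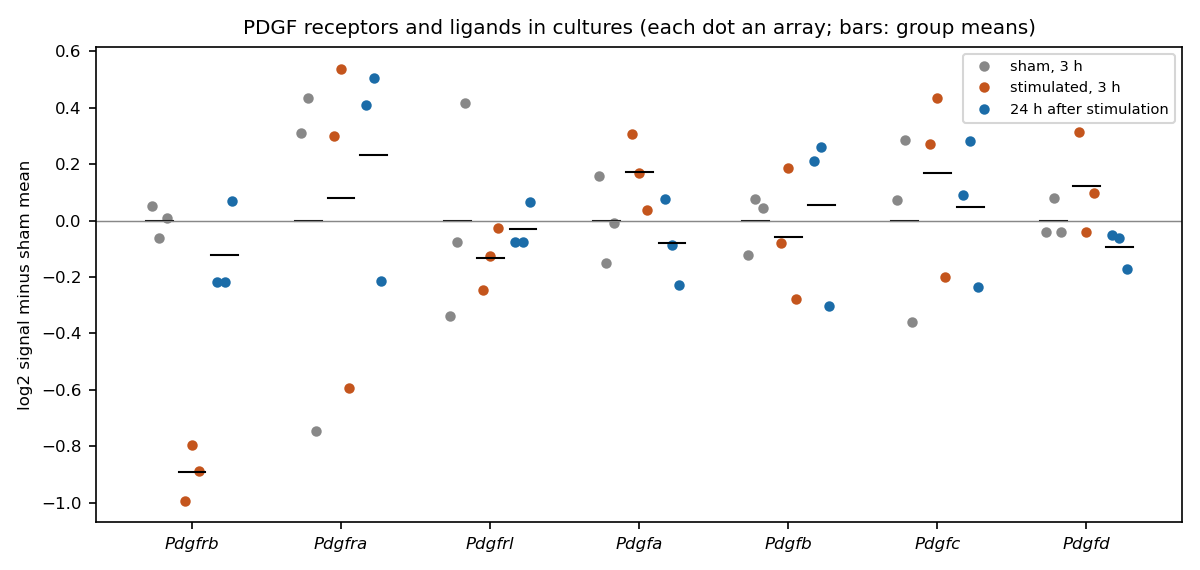
Log2 signal minus the sham mean for Pdgfrb and 6 related genes on each culture array, with bars at the group means of 3 arrays (grey, sham; orange, 3 h after stimulation; blue, 24 h after it). Pdgfrb lies at -0.89 on average after stimulation and at -0.12 at 24 h, while the stimulated arrays of the other 6 genes overlap with sham.

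Among the other pericyte genes Mcam, an adhesion molecule that endothelium and some pericytes carry, went the other way. It read 7.24, 7.53 and 6.97 after sham and 8.18, 8.06 and 8.25 after stimulation, and it rose by 0.92 ± 0.13 (1.89-fold, adjusted p = 0.0235, limma), the only 1 of 23 pericyte genes to pass (4.35%). Its call was lost without sham culture 1 or 3 or any stimulated culture (adjusted p from 0.057 to 0.106, limma). The mean of the pericyte list per array was 5.97 to 6.01 after sham, 6.08 to 6.10 after stimulation and 6.05 to 6.12 at 24 h, so that sham lay below both without overlap. No pericyte gene passed between 24 h and sham, and a single gene can move such a mean. S1pr3 read 8.6, 8.0 and 9.3 after sham and 10.0, 8.5 and 11.3 at 24 h. How much of the list difference it carried was not tested. No endothelial gene of 35 and no barrier transporter of 16 passed. The lactate transporter gene Slc16a1 (1.27 ± 0.30, adjusted p = 0.0895, limma) and Slc2a1 (0.89 ± 0.25, adjusted p = 0.145, limma) had the smallest p of the transporters.

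Slc2a1 passed once the culture number was a block. It read 10.85, 10.80 and 11.40 in sham cultures 1, 2 and 3. Stimulated dishes of the same numbers read 11.87, 11.58 and 12.28, and dishes at 24 h read 10.77, 10.90 and 11.46. Culture 3 was highest in each group, and every stimulated dish lay above every sham dish. In that fit Slc2a1 was higher after stimulation by 0.89 ± 0.09 (adjusted p = 0.0123, limma) and lower at 24 h than after stimulation by -0.87 ± 0.09 (adjusted p = 0.0181, limma; 0.217 without the block). Slc16a1 did not pass with the block either (adjusted p = 0.0604, limma).

 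Among the vascular signalling genes Nrarp, a feedback regulator of Notch, fell by -1.46 ± 0.24 (adjusted p = 0.0366, limma), a call lost with any 1 of the 6 arrays left out. Nrarp was listed with earlier results of these data known, so its p-values among cultures are no independent evidence. With the block it was higher again at 24 h, by 1.44 ± 0.11 (adjusted p = 0.0108, limma; 0.0687 without the block). Abcb1b read 5.10, 5.15 and 5.71 after sham and 6.32, 5.85 and 6.86 after stimulation. These arrays did not overlap, as for 6.94% of genes in that direction, and the difference of 1.02 ± 0.45 did not pass (adjusted p = 0.397, limma). Neuron genes differed between the same dishes: the mean of 11 was 12.04 to 12.12 after sham, 12.23 to 12.33 after stimulation and 12.13 to 12.16 at 24 h, without overlap. One of them, the neurofilament gene Nefl, rose after stimulation by 1.09 ± 0.13 (adjusted p = 0.0135, limma), a call that 4 of the 6 fits with an array left out kept (adjusted p up to 0.0605, limma). Between sham and 24 h the neuron genes went both ways. The mean of Nefl went from 11.61 to 12.36 and that of Nefm from 9.30 to 9.96. Rbfox3 went from 11.86 to 11.49 and Camk2a from 12.61 to 12.30. The part of the neuron genes in the vascular and pericyte differences was not tested.

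Set side by side, Pdgfrb differed by -0.14 in sleep-deprived cortex and by -0.89 in stimulated culture. The difference between the responses was -0.75 ± 0.11, again as a description because the culture value chose the gene. Slco1a4 had a difference between responses of 0.41 ± 0.13 that did not pass (adjusted p = 0.148, limma), and Vtn had 0.16 ± 0.09 (adjusted p = 0.535, limma). Of all genes 2.07% passed this test. Mcam did (1.10 ± 0.15, adjusted p = 0.0019, limma), as did Lama4 (0.51 ± 0.10, adjusted p = 0.0128, limma), Slc16a1 (1.47 ± 0.32, adjusted p = 0.0301, limma), Edn1 (0.94 ± 0.21, adjusted p = 0.0308, limma) and Nrarp (-1.17 ± 0.27, adjusted p = 0.0384, limma). Nefl (1.035) of the neuron list and Opalin (0.74) of the oligodendrocyte list passed too. Nrarp and Opalin were listed with earlier results of these data known, so their calls are no independent evidence. The sham means of Slco1a4, Lama4 and Opalin were low (2.98, 5.09 and 3.77), and whether these signals could fall further in culture was not tested. With 1 of the 12 arrays left out in turn Mcam, Lama4, Nefl and Opalin passed each time. Slc16a1, Edn1 and Nrarp passed in 2 of 12 fits each (adjusted p up to 0.0805, 0.0902 and 0.108, limma). The replicate numbers were taken to pair the cultures but not the cortex pools. With these numbers as a block, Mfsd2a (-0.69 ± 0.09, adjusted p = 0.0027, limma) and Slc2a1 (0.47 ± 0.10, adjusted p = 0.0288, limma) also passed, against 0.095 and 0.57 without it.

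Within each system the members varied together only in part. Over the 9 cortex arrays Pearson's r was 0.88 between Vtn and Pdgfrb, 0.79 between Slco1a4 and Vtn and 0.75 between Slco1a4 and Pdgfrb. Over the 9 culture arrays the same pairs had 0.22, 0.48 and 0.41. Abcb1a and Abcc9 had r from -0.56 to 0.28 against the other members in cortex, and in culture from -0.47 (Abcb1a and Pdgfrb) to 0.57 (Vtn and Abcc9), the highest culture pair. These arrays share their groups and normalization, and the correlations are a description.

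Genes with the most similar pattern were ranked by the lower of r over the 9 cortex and r over the 9 culture arrays. For Pdgfrb they were Polr3e (0.94 in cortex and 0.94 in culture), Med23 (0.94 and 0.97) and Celf1 (0.93 and 0.93), for Slco1a4 Serpini1 (0.95 and 0.78), Nacc2 (0.81 and 0.74) and Prrx1 (0.86 and 0.72), and for Vtn Slc39a7 (0.78 and 0.88), Dtx2 (0.78 and 0.82) and Babam1 (0.90 and 0.77). Abcb1a was followed most closely by Btn2a2 (0.90 and 0.77), Svs2 (0.75 and 0.84) and Vegfa (0.73 and 0.76), and Abcc9 by Taar6 (0.82 and 0.90), Tsnaxip1 (0.75 and 0.83) and Chchd10 (0.74 and 0.81). None of these 15 genes was on the endothelial or pericyte list.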

How the data were processed

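RNA of 18 samples was hybridised to Affymetrix whole-transcript arrays. The authors deposited log2 signals made with RMA, per the submitters' processing notes; its version and settings were not given in the sources used here, nor whether all arrays were normalized together. Of 23238 probe sets, 14939 had 1 gene symbol, 989 several and 7310 none in the platform annotation. The highest-mean probe set was kept for the 131 genes with several, which left 14807 genes, none removed for low signal. Two-sided moderated tests of limma (version 3.58.1, run under R 4.3.3) compared the groups, with Benjamini-Hochberg adjustment over all genes and a threshold of 0.05, for cortex and culture apart, and in 1 model of 6 groups for culture against cortex and for the difference between responses. Correlations and promoter matches were computed in Python 3.11.15.

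The members and the 18 gene lists were chosen with earlier results of these data known. Named genes are the members, the list genes past the threshold (at most 6 with the smallest p per list, otherwise 2), PDGF ligands, channel partners and paralogs, the 3 genes most like each member, and Arc. Ttr, Cspg4, Notch3, S1pr3, Nefm, Rbfox3 and Camk2a were added after their values were seen. Same-numbered culture arrays deviated together (r 0.20 to 0.55 over 9 pairs, against -0.36 to 0.12 over 18 pairs of different number). Equal numbers were therefore taken to mark the same 1 of the 3 cultures, which is an inference from these arrays. Same-numbered cortex pools did not deviate together (-0.10 to 0.10). Alternatives were quantile normalization, removal of the 30% lowest genes, 1 model of all arrays, only the compared arrays, the replicate block, array weights, a robust variance trend, the mean of probe sets and leaving out each array. Tested on simulated data, the cortex fit recovered 70% of genes changed by -0.5 and 96% of those changed by 1, and the culture fit 36% and 78%. The simulated noise was normal and independent between arrays. It lacked the repeated values and the shared culture deviations of the real arrays, so these rates do not give the power of the real fits.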

Additional observations from a re-analysis of the deposited data

Results flagged for a closer look

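Pdgfrb was flagged by the limma threshold on its difference between responses, which holds the culture values that chose the gene. The flag is therefore no test, and its values are a description. Its signal was lower by -0.14 in sleep-deprived than in control cortex and by -0.89 in stimulated than in sham cultures, a difference between responses of -0.75 ± 0.11 (SE, limma model of 18 arrays). All 3 stimulated cultures lay below all 3 sham cultures, and all 3 sleep-deprived pools below all 3 control pools. The culture value was among those that chose the gene, so no test of it is given. Groups of 3 arrays were too small to look for single outlying arrays.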

How the results depend on the processing

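The direction of the culture-cortex difference of all 5 genes held under each alternative, although Slco1a4 and Abcc9 were among the 30% lowest genes, so that 3 members remained without those. With array weights 1 member (Slco1a4) passed between sleep-deprived and control cortex and 1 between recovered and sleep-deprived cortex, where a fit of the compared arrays alone also gave 1. Pdgfrb, whose culture values chose it, is not counted as called among cultures. The 3 endothelial calls after deprivation became 1 in a joint model of the 18 arrays, 1 in a fit of the compared groups alone and 7 with array weights, and ranged from 1 to 1 when each array was left out. The 2 endothelial calls between recovered and sleep-deprived cortex became 4 without the lowest genes, 0 in the joint model, 1 for the compared groups alone, 1 with the replicate block, 5 with array weights and 4 with the robust trend, and ranged from 1 to 2 when each array was left out. Array weights gave 2 endothelial calls at 24 h against sham and 2 against stimulated. For pericyte genes array weights gave 1 call after deprivation, 3 between recovered and sleep-deprived cortex (2 without the lowest genes, 1 with the robust trend), 2 in each comparison among cultures. The joint model gave 2 for stimulated against sham and 2 for 24 h against stimulated, the compared groups alone gave 0 for stimulated against sham, and leaving out each array gave 0 to 1. Signs of differences near 0 reversed with array weights for Abcc9 after deprivation (-0.021), between 24 h and stimulated cultures (-0.024) and in the difference between responses (0.049), and for Vtn (-0.025) and Pdgfrb (-0.0061) between recovered and control cortex, and after quantile normalization for Abcb1a between recovered and sleep-deprived cortex (-0.015). The cause was not tested. Leaving out each array in turn also changed the sign of some. After deprivation Abcb1a ranged from -0.016 to 0.052 and Abcc9 from -0.011 to 0.080. Between recovered and control cortex Slco1a4 ranged from -0.036 to 0.170, Vtn from -0.051 to 0.057, Pdgfrb from -0.0057 to 0.074 and Abcc9 from -0.076 to 0.014. Slco1a4 ranged from -0.055 to 0.026 between stimulated and sham cultures. Between 24 h and stimulated cultures Slco1a4 ranged from -0.013 to 0.068, Abcb1a from -0.0999 to 0.030 and Abcc9 from -0.015 to 0.031. The difference between responses of Abcc9 ranged from -0.058 to 0.032.

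The replicate block changed no call of a tested member. Besides the changes given above it added, between 24 h and stimulated cultures, Arc and the astrocyte gene Gfap (adjusted p = 0.0115 and 0.0455, limma), and, in the difference between responses, Icam2, Abcb1b, Cnn1, Jag2 and S1pr3 (adjusted p from 0.0201 to 0.045, limma). In cortex, where numbers do not pair the pools, it took the calls of Cd34, Tfrc and Edn1 after deprivation (adjusted p = 0.112, 0.0899 and 0.0855, limma). Over all genes quantile normalization moved the split of calls from 133 higher and 82 lower to 197 and 64 in stimulated cultures (466 and 704 in the joint model, 379 and 531 with array weights, and 18 to 72 calls in all with an array left out), and from 217 and 117 to 239 and 230 between recovered and sleep-deprived cortex. Counts after deprivation ranged from 31 genes in the joint model to 811 with array weights, against 241.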
